A study of Mus musculus with 2 samples.

Results

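The genes of oxidative phosphorylation were taken by symbol from the deposited gene list, by the name families of the complex I, II, III, IV and V subunits and of the protein genes of mitochondrial DNA. The rule found 105 of 27998 listed genes. Of these, 82 code for nuclear-encoded structural subunits or their isoforms, 13 are mitochondrially encoded subunits, and 10 are assembly factors or related genes that share the name families. Complex I had 36 nuclear and 7 mitochondrial members, complex II 4 nuclear members, complex III 8 and 1, complex IV 19 and 3, and complex V 15 and 2. Ndufa4 and Ndufa4l2 were placed in complex IV, where the Ndufa4 protein is found.

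Oxidative phosphorylation makes ATP in the inner mitochondrial membrane. Complexes I and II pass electrons from NADH and succinate to coenzyme Q, complex III passes them to cytochrome c and complex IV to oxygen, while complexes I, III and IV pump protons that drive the ATP synthase, complex V. Complexes I, III, IV and V are built from subunits of both genomes, complex II from nuclear-encoded subunits alone, so the nucleus and the mitochondrial DNA must both be expressed to build the chain. Microglia, the resident macrophages of the brain, use this pathway beside glycolysis.

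RNA was counted in single brain cells of adult wild type C57BL/6J mice in 2 libraries. Repop D5 came from 6 pooled mice treated with PLX5622 during 14 days, followed by 5 days of control diet in which microglia return. PLX5622 inhibits the CSF1 receptor, whose signal microglia need to survive. CD came from 4 pooled mice fed control diet for 19 days. In both, tissue was digested with papain for 20 minutes at 37 degrees, myelin was removed, and live cells positive for CD11b and CD45, a gate that also holds other myeloid cells, were sorted. With 1 library per group there is no replicate and no test: the 95% intervals below cover counting error only, and animal, library and treatment cannot be told apart.

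RNA molecules were counted by unique molecular identifiers (UMIs). A cell was retained if it showed at least 500 genes and if mt- genes made up less than 10% of its UMIs, which held for 553 of 585 Repop D5 and 609 of 609 CD cells. All 13 genes with the mt- prefix are members, so this filter selects on the outcome, and the sums, calls and genome balance over every barcode are given in a paragraph of their own. Retained cells held 11037921 UMIs in Repop D5 and 6055886 in CD, with medians of 16226 and 5982 UMIs per cell. The barcode lists share 1 barcode. The 12 microglia markers summed to 13369 CPM (counts scaled to an equal total per library) in Repop D5 and 30512 in CD, all 12 being found in each library. Markers of other cells differed between the libraries as well: the 10 neutrophil markers summed to 2110 CPM in Repop D5 and 13193 in CD, 9 and 10 detected border macrophage markers to 250.2 and 1360 CPM, the red cell markers to 2.72 and 1642 CPM, and the 8 markers of dividing cells to 953 and 16.8 CPM.

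Promoters of 4 subunit genes are shown, since each nuclear-encoded member is transcribed from a promoter of its own. Among measured subunits whose promoter is given here, Cox5a and Cox7b had the highest Repop D5 over CD ratios, and Ndufs7 and Sdha the lowest. The windows are those of RefSeq (GRCm38.p6), in which 66 of 82 subunits were matched by symbol. Each runs 5′ to 3′ on the gene's strand from 250 bases before to 50 after the start site, and capitals mark motif matches. The Cox5a window is chr9:57520982-57521281 on the plus strand, the Cox7b window chrX:106015450-106015749 on the plus strand, the Ndufs7 window chr10:80249199-80249498 on the plus strand and the Sdha window chr13:74350191-74350490 on the minus strand.
Cox5a: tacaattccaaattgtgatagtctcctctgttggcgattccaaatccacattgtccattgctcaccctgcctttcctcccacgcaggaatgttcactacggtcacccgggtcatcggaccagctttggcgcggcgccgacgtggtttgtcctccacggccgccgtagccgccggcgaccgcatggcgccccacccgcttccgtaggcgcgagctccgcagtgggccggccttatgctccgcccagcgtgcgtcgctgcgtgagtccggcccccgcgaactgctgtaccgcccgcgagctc
Cox7b: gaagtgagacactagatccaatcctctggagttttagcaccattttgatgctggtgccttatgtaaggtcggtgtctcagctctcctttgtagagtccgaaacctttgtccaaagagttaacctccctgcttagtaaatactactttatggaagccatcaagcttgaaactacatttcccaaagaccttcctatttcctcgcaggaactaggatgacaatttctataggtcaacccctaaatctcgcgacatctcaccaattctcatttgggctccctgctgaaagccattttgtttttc
Ndufs7: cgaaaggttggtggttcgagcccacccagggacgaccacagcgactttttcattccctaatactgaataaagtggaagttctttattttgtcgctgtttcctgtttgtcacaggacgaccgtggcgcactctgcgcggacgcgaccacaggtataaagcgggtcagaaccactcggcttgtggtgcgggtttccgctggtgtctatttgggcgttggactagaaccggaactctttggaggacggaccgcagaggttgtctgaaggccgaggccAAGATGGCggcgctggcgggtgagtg
Sdha: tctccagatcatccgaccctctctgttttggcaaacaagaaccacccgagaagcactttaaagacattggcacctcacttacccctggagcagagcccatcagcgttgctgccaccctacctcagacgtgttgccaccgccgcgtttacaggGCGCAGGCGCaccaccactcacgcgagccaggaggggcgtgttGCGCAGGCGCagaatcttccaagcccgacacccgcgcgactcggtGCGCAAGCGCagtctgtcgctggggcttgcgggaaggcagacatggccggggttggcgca

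The motifs searched are known from respiratory gene promoters and were counted on both strands, each by itself and regardless of overlap: GCGCANGCGC for NRF1, CCGGAAGT for GABPA and AAGATGGC for YY1. The Cox5a and Cox7b windows held no match, the Ndufs7 window 1 YY1 match beginning 25 bases after the start site, and the Sdha window 3 NRF1 matches beginning 98, 55 and 10 bases before it. Of these 4 windows, those with a match belong to the genes with the lower ratios. Across all matched subunits the NRF1 motif was in 17 of 66 windows (25.8%), against 5.19% of 27025 promoters of all genes and 13.4% of 6749 promoters of measured genes. The YY1 motif was in 13.6% of subunit windows, against 3.19% of all and 6.43% of measured genes, and the GABPA motif in 7.58%, against 4.31% and 11.0%. Among measured subunits with a window, 12 of 47 called higher in Repop D5 held the NRF1 motif (25.5%) and 5 of 15 called neither way (33.3%). A match is a description of the letters and not a bound site.

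Nuclear-encoded subunits were higher in Repop D5. Their UMIs summed to 26216 CPM in Repop D5 and 13741 CPM in CD, a ratio of 1.91 (1.89 to 1.92). A gene was counted as measured at 10 CPM or more in 1 library, which 74 of the 82 reached, and as higher if its ratio of CPM was at least 1.5 and its interval excluded 1 (lower: the inverse). By this rule 57 were called higher, 0 lower and 17 neither, while 16.8% of the 8463 genes measured at the same minimum were higher and 42.1% were lower. The median log2 ratio (1 CPM added to each value) was 0.88 over the measured subunits and -0.38 over all measured genes, and 71 of the 74 subunits had an interval above 1.

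Mitochondrially encoded subunits were also higher, and by more in the retained cells, an order that turned under a stricter cell filter (ratios of 1.89 for mitochondrial and 1.93 for nuclear subunits). They summed to 49254 CPM in Repop D5 and 21250 CPM in CD, a ratio of 2.32 (2.30 to 2.33), with a median log2 ratio of 0.99. Of the 13 genes, 12 were higher and 0 lower; mt-Nd4l was neither. At a ratio of at least 2, 25 nuclear and 6 mitochondrial subunits were higher, while 9.61% of all measured genes were higher and 23.8% lower. For every nuclear-subunit UMI, Repop D5 held 1.88 mitochondrial-subunit UMIs and CD 1.55.

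**Figure D1:**
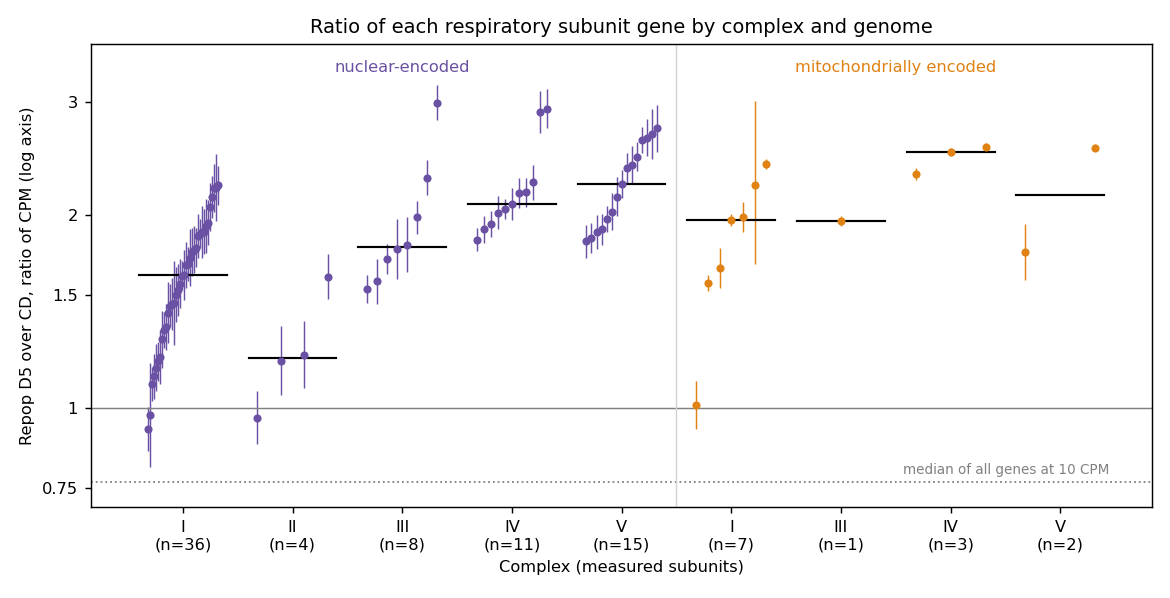
Ratio of CPM, Repop D5 over CD, of each measured subunit gene (points, log axis, 1 library per group) with its 95% counting interval (vertical lines), by complex and genome. Black lines are medians, the dotted line the median of all 8463 genes measured. Nuclear members of complexes III, IV and V all lie above 1.5, those of complexes I and II reach down to 1 and just below it, and mt-Nd4l lies at 1.01.

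The scaling of the libraries bears on every level here. Most genes had a lower share of UMIs in Repop D5, while ribosomal protein genes took 230757 CPM in Repop D5 and 113451 CPM in CD. Trimmed-mean scaling added 0.46 to each log2 ratio, and totals without mt- and ribosomal protein genes added 0.27. All-gene calls then became 30.6% higher and 21.3% lower under the first, and 23.4% higher and 29.9% lower under the second. No subunit set's median changed sign under either. All values are RNA levels, and protein and respiration were not analysed here.

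Complex I members differed among themselves. The 36 nuclear members, all measured, summed to 7701 CPM in Repop D5 and 4829 CPM in CD, a ratio of 1.59 (1.57 to 1.62), and 22 were higher. The 7 core subunits, which carry the flavin and iron-sulfur centres that move electrons, had a summed ratio of 1.28 (1.23 to 1.33), and 2 of them were higher. The 29 accessory subunits had a summed ratio of 1.64 (1.62 to 1.67), with 20 higher.

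Among the nuclear members of complex I, Ndufb8 and Ndufb6, accessory subunits of its membrane arm, had the highest ratios. Ndufa12, also accessory, was close at 2.20 (2.02 to 2.40). Other accessory subunits were low, with Ndufc2, Ndufb4 and Ndufb3 at 1.09, 1.12 and 1.16. Ndufb8 had 353.2 CPM in Repop D5 and 158.7 CPM in CD, a ratio of 2.23 (2.07 to 2.39). Ndufb6 had 123.9 CPM in Repop D5 and 56.1 CPM in CD, a ratio of 2.21 (1.96 to 2.49). Ndufs7 and Ndufs1, core subunits of the matrix arm that carry iron-sulfur clusters, had the lowest, while Ndufv2, another iron-sulfur core subunit, was higher at 1.71 (1.55 to 1.90). Ndufs7 had 150.6 CPM in Repop D5 and 162.3 CPM in CD, a ratio of 0.928 (0.857 to 1.00), which trimmed-mean scaling turned to 1.27. Ndufs1, the largest subunit of the complex, had 29.3 CPM in Repop D5 and 30.1 CPM in CD, a ratio of 0.974 (0.809 to 1.17), and 1.34 under that scaling. The accessory subunits Ndufa2 and Ndufa13 were both higher, Ndufa2 with 561.8 CPM in Repop D5 and 300.4 CPM in CD and Ndufa13 with 481.7 and 299.2 CPM. Close to the limit of 1.5, Ndufa9 was counted, just above it, and Ndufv1 and Ndufa5 were not, at 1.46 and 1.45.

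Complex II, succinate dehydrogenase, had the smallest summed ratio of the complexes, close to the 1.28 (1.23 to 1.33) of the complex I core subunits. Its 4 genes summed to 474 CPM in Repop D5 and 372 CPM in CD, a ratio of 1.27 (1.21 to 1.34). Only Sdhb, the iron-sulfur subunit, was higher, with 213.4 CPM in Repop D5 and 133.1 CPM in CD, a ratio of 1.60 (1.48 to 1.74). Sdha, the flavoprotein that oxidises succinate in the citrate cycle, had 107.7 CPM in Repop D5 and 111.6 CPM in CD, a ratio of 0.965 (0.877 to 1.06), or 1.32 under trimmed-mean scaling. The membrane anchors lay between: Sdhc had 73.6 CPM in Repop D5 and 62.1 CPM in CD, and Sdhd 79.3 and 65.6 CPM.

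All 8 nuclear members of complex III were higher. They summed to 2994 CPM in Repop D5 and 1542 CPM in CD, a ratio of 1.94 (1.90 to 1.99). Uqcrq, a small subunit of the membrane part, had the highest ratio of all measured subunits, with 567.9 CPM in Repop D5 and 189.6 CPM in CD, a ratio of 3.00 (2.81 to 3.19). Uqcr10, another small subunit, had 454.2 CPM in Repop D5 and 198.5 CPM in CD, a ratio of 2.29 (2.15 to 2.44). The lowest ratios in the complex were those of Uqcrh, the hinge protein, at 1.53 (1.46 to 1.61), and Uqcrc1, a core protein, at 1.58 (1.45 to 1.71). Uqcrb, which lies near the coenzyme Q site, had 502.4 CPM in Repop D5 and 293.6 CPM in CD.

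In complex IV, cytochrome c oxidase, 11 of 19 nuclear members were measured and all 11 were higher. The 19 summed to 7295 CPM in Repop D5 and 3491 CPM in CD, a ratio of 2.09 (2.06 to 2.12). Cox5a, an early-assembling subunit on the matrix side, had 458.8 CPM in Repop D5 and 156.5 CPM in CD, a ratio of 2.93 (2.73 to 3.14). Cox7b, a small membrane subunit, had 385.04 CPM in Repop D5 and 132.9 CPM in CD, a ratio of 2.90 (2.69 to 3.13). The lowest ratios were those of Cox8a, with 900.3 CPM in Repop D5 and 491.9 CPM in CD, a ratio of 1.83 (1.76 to 1.91), and Cox6b1, 1.90 (1.81 to 1.99). Cox4i1, the ubiquitous form of the nuclear-encoded subunit 4, had 1341 CPM in Repop D5 and 655.7 CPM in CD, a ratio of 2.04 (1.97 to 2.12).

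The other 8 members of complex IV, tissue isoforms and Ndufa4l2, a hypoxia-induced relative of Ndufa4, did not reach 10 CPM in either library. Of these, Cox4i2 and Cox7a1 were seen mainly in Repop D5. Cox4i2, the lung form of subunit 4, had 25 UMIs in Repop D5 and 1 in CD, a ratio of 13.7 with an interval of 2.25 to 563. Cox7a1, the heart and muscle form of subunit 7A, had 65 UMIs in Repop D5 and 4 in CD, a ratio of 8.92 (3.32 to 33.7), and made up 1.25% of the Cox7a1 and Cox7a2 UMIs in Repop D5 and 0.285% in CD. Cox6a2, the heart and muscle form of subunit 6A, had 66 UMIs in Repop D5 and 34 in CD, 5.98 and 5.61 CPM, a ratio of 1.07 (0.694 to 1.66). Cox6b2, the testis form of subunit 6B, went the other way, with 37 UMIs in Repop D5 and 45 in CD, a ratio of 0.451 (0.284 to 0.713). In the microglia-like clusters described below it had 32 and 12 UMIs, a ratio of 0.763 (0.382 to 1.63). Cox8b had 1 UMI in Repop D5 and 0 in CD, Ndufa4l2 1 in each, and Cox7b2 and Cox8c 0 in both, which allows up to 0.272 CPM in Repop D5 and 0.495 CPM in CD (3 counts per library). The common forms Cox4i1, Cox6a1, Cox6b1, Cox7a2 and Cox8a held nearly all UMIs of their sets, the lowest being Cox7a2 in Repop D5 with 98.75% and Cox6b1 in CD with 98.02%.

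Complex V had the highest nuclear ratio. Its 15 members were all measured and all higher, and summed to 7752 CPM in Repop D5 and 3507 CPM in CD, a ratio of 2.21 (2.18 to 2.24). Atp5o, the stalk subunit that holds the catalytic head, had 301.4 CPM in Repop D5 and 110.3 CPM in CD, a ratio of 2.73 (2.51 to 2.97). Atp5g3, one of 3 genes for the same proton-carrying ring protein, had 254.7 CPM in Repop D5 and 95.1 CPM in CD, a ratio of 2.68 (2.45 to 2.93). The 3 ring genes kept close shares: Atp5g1 took 33.6% of their UMIs in Repop D5 and 31.95% in CD, Atp5g2 47.8% and 50.6%, and Atp5g3 18.6% and 17.4%. At the low end stood Atp5a1, a catalytic-head subunit, at 1.82 (1.72 to 1.93), and Atp5h, a stalk subunit, at 1.84 (1.74 to 1.95). Atp5e, of the rotating stalk, had 937.7 CPM in Repop D5 and 357.7 CPM in CD, a ratio of 2.62 (2.50 to 2.75), and Atp5l, a membrane subunit, 700.1 and 355.03 CPM.

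By median log2 ratio the nuclear members ranked complex V at 1.16, IV at 1.06, III at 0.83, I at 0.68 and II at 0.26. The intervals of the summed ratios of all 5 did not overlap, as far as counting error goes, and no test over animals is possible. This order was the same in 14 of 15 alternatives. Thinning every cell to 3000 UMIs placed complex IV before V, and complexes I and II came last in 15 of 15.

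**Figure D2:**
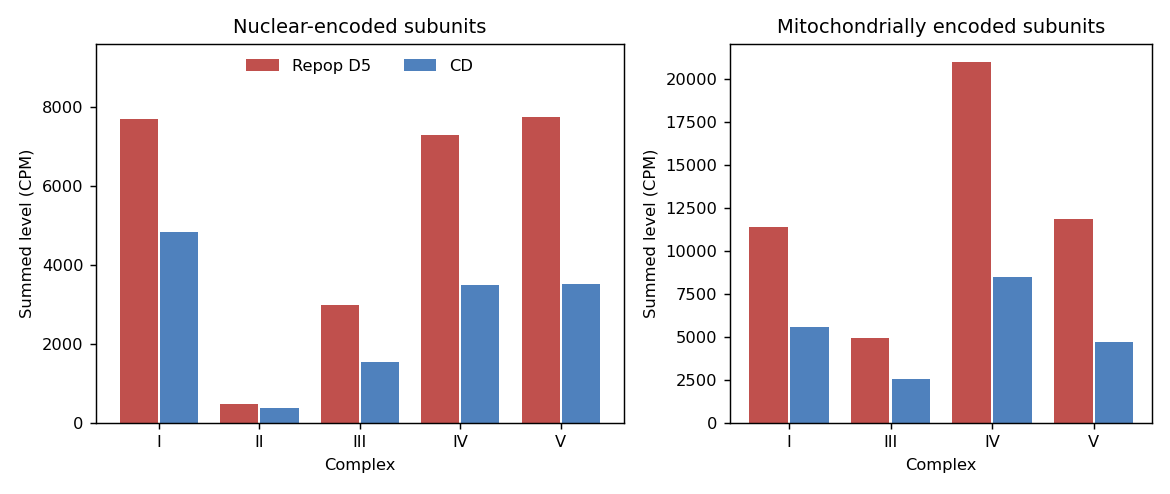
Summed level in CPM of the subunits of each complex in the retained cells of Repop D5 (red) and CD (blue), 1 library each, for nuclear-encoded (left) and mitochondrially encoded subunits (right, another scale). Every Repop D5 bar is taller; complex II has the closest pair, 474 and 372 CPM.

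Turning to the mitochondrial genome, its 13 genes lie on chrM in a chain, and 4 neighbouring pairs overlap. Of complex IV, the catalytic subunit gene mt-Co1 (chrM:5328-6872) had 7364 CPM in Repop D5 and 2885 CPM in CD, a ratio of 2.55 (2.51 to 2.59). The copper-carrying mt-Co2 (chrM:7013-7696) had 4350 CPM in Repop D5 and 1877 CPM in CD, a ratio of 2.32 (2.27 to 2.37). mt-Co3 (chrM:8607-9390) had 9300 CPM in Repop D5 and 3706 CPM in CD, a ratio of 2.51 (2.47 to 2.55). Complex IV thus had ratios between 2.32 and 2.55 in all 3 genes. In complex V, mt-Atp6 (chrM:7927-8607), which forms the proton path, had 11746 CPM in Repop D5 and 4606 CPM in CD, a ratio of 2.55 (2.52 to 2.58). mt-Atp8 had 150.7 CPM in Repop D5 and 86.03 CPM in CD, a ratio of 1.75 (1.59 to 1.94), but its last 43 bases are also the first of mt-Atp6, so its count is uncertain.

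The 7 mitochondrial complex I genes code for the proton-pumping membrane arm and were more spread. mt-Nd1 (chrM:2751-3707) had 5664 CPM in Repop D5 and 2355 CPM in CD, a ratio of 2.40 (2.36 to 2.45). mt-Nd4 (chrM:10167-11544) had 3105 CPM in Repop D5 and 1581 CPM in CD, a ratio of 1.96 (1.92 to 2.01). mt-Nd2 (chrM:3914-4951) had 1600 CPM in Repop D5 and 1022 CPM in CD, a ratio of 1.57 (1.52 to 1.61). These 3 genes do not overlap in their intervals. mt-Nd3 stood at 1.99 (1.88 to 2.096) with 575.02 CPM in Repop D5 and 289.5 CPM in CD, and mt-Nd5 at 1.65 (1.54 to 1.77) with 277.9 and 168.3 CPM. mt-Nd6, read from the other strand than the rest, had 244 UMIs in Repop D5 and 60 in CD, 22.1 and 9.91 CPM, a ratio of 2.23 (1.68 to 3.01), and shares 14 bases with mt-Nd5. mt-Nd4l had 134 CPM in Repop D5 and 132.6 CPM in CD, a ratio of 1.01 (0.927 to 1.10). Under the stricter cell filter this ratio was 0.871 (0.786 to 0.964). mt-Nd4l shares 7 bases with mt-Nd4, and how reads of the pair were assigned was not examined, so its count is uncertain too. mt-Cytb (chrM:14145-15288), the one mitochondrial gene of complex III, had 4964 CPM in Repop D5 and 2532 CPM in CD, a ratio of 1.96 (1.93 to 2.00).

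**Figure D3:**
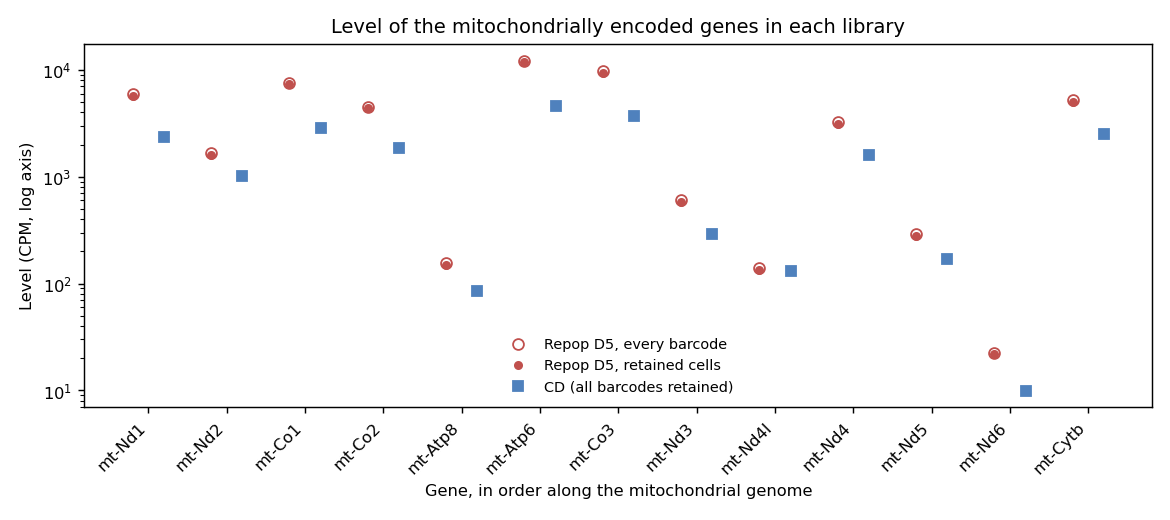
Level in CPM (log axis) of the 13 mitochondrially encoded genes in order along the mitochondrial genome, in Repop D5 over every barcode (open circles) and retained cells (filled circles) and in CD (squares, all barcodes retained), 1 library each. Open and filled circles nearly coincide, and mt-Nd4l is the one gene whose Repop D5 and CD levels lie together, at 134 and 132.6 CPM.

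Within the mitochondrial UMIs the shares of single genes also differed. mt-Atp6 made up 23.8% of them in Repop D5 and 21.7% in CD, mt-Co1 14.95% and 13.6%, mt-Cytb 10.1% and 11.9%, mt-Nd2 3.25% and 4.81%, and mt-Nd4l 0.272% and 0.624%. The balance of the genomes also varied by complex. Mitochondrial UMIs per nuclear UMI were 1.48 in Repop D5 and 1.15 in CD for complex I, 1.66 and 1.64 for complex III, 2.88 and 2.43 for complex IV, and 1.53 and 1.34 for complex V. Complex III thus kept nearly the same balance, and complex I differed the most, by 1.28 times.

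The cell filter touched the genomes unequally. Over every barcode the nuclear-encoded subunits summed to 26140 CPM in Repop D5 and 13741 CPM in CD, a ratio of 1.90 (1.89 to 1.92), with 57 called higher and none lower. Mitochondrially encoded subunits summed to 51347 CPM in Repop D5 and 21250 CPM in CD, a ratio of 2.42 (2.40 to 2.43), with 12 called higher and none lower. The background over every barcode was 16.8% higher and 42% lower. Summed nuclear ratios by complex were then 1.59, 1.27, 1.94, 2.08 and 2.20 for complexes I to V. The mitochondrial genes ran from 1.05 for mt-Nd4l to 2.66 for mt-Atp6, with mt-Nd1 at 2.53. Mitochondrial UMIs per nuclear UMI were 1.96 in Repop D5 and 1.55 in CD, and for complex III 1.73 and 1.64. All 32 barcodes left out were of Repop D5 and went by the mt- limit, with mt- shares of 10.05% to 30.2%, beside 9.91% in the highest retained cell. They had a median of 6689 UMIs, 2.83 times (2.80 to 2.86) the mitochondrial and 0.877 times (0.854 to 0.899) the nuclear subunit level of the retained Repop D5 cells, and 12865 CPM of microglia markers. A limit of 5% with at least 1000 genes kept 313 Repop D5 and 600 CD cells. The mitochondrial ratio was then 1.89 and its median log2 ratio 0.75, below the nuclear 1.93 and 0.90, so which genome had the larger ratio depends on this limit.

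Cell by cell, the nuclear-encoded subunits took a median of 2.57% of UMIs in retained Repop D5 cells (range 1.09% to 3.67%) and 1.36% in CD cells (0.150% to 3.01%). In all, 552 of 553 Repop D5 cells lay above the CD median, and 55 above the highest CD cell. Mitochondrially encoded subunits took a median of 4.78% in Repop D5 (0.647% to 9.91%) and 2.00% in CD (0.281% to 7.33%), with 539 of 553 Repop D5 cells above the CD median and 45 above the highest CD cell. Nearly the whole Repop D5 distribution lay above the CD median, while the ranges overlapped. Across cells the shares of both genomes were nearly unrelated, with a Spearman rho of -0.01 over 553 Repop D5 cells and 0.19 over 609 CD cells, where the shares have each cell's total in common.

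**Figure D4:**
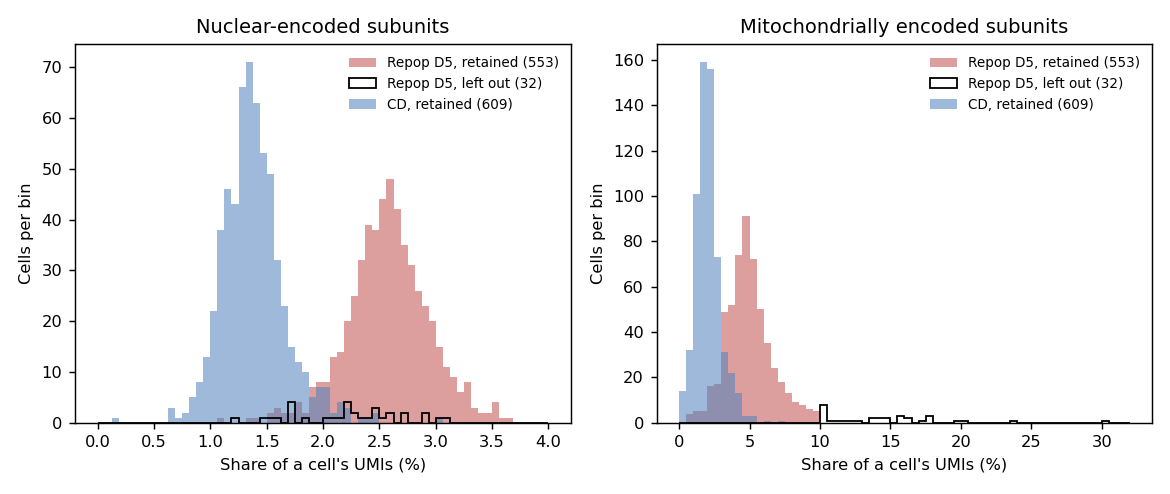
Number of cells by their share of UMIs (%) from nuclear-encoded (left) and mitochondrially encoded subunits (right), for retained Repop D5 cells (red), the 32 left-out Repop D5 barcodes (black outline) and CD cells (blue). The Repop D5 nuclear shares centre on 2.57% and the CD shares on 1.36%, and the left-out barcodes lie within the Repop D5 nuclear range but beyond 10% for the mitochondrial genes.

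Depth differed with the group, and alternatives narrowed or removed the gap. In cells of 5000 to 15000 UMIs, 227 of Repop D5 and 248 of CD with medians of 10342 and 7512 UMIs, the summed ratio was 1.76 for nuclear and 2.30 for mitochondrial subunits. With each cell thinned to 3000 UMIs (553 Repop D5 and 599 CD cells) it was 1.84 and 2.35. Annotated length went with the ratio as well. A gene's length here is the median over its annotated protein-coding transcripts, and which of them was expressed is not known. It was 651 bases for Ndufs1, the largest subunit of complex I, so lengths and groups by length are approximate. Measured subunits had a median of 671 bases and all measured genes one of 2019 bases. Spearman's rho of length with log2 ratio was -0.23 over 8308 genes. Among genes of up to 1000 bases by this length, 57 subunits had a median log2 ratio of 0.91 with 78.9% higher. The 1721 other genes had -0.06 with 26.0% higher. From 1000 to 2000 bases the medians were 0.64 over 14 subunits and -0.27 over 2319 other genes. Over the 74 measured nuclear subunits, rho with log2 ratio was -0.20 for length and 0.57 for level in both libraries together. Within complexes I, III, IV and V the rho of level was 0.26, -0.17, -0.77 and -0.25.

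Cells of both libraries fell into 11 clusters, most of them made up largely of 1 library. Clusters 1, 3, 5 and 7 held 205, 179, 63 and 49 Repop D5 cells beside 3, 0, 0 and 1 CD cells. Clusters 0 and 2 held 217 and 190 CD cells beside 1 and 0 Repop D5 cells. All 6 were microglia-like, with at least 11 of the 12 microglia markers at 50 CPM, which other myeloid clusters also reached; those were named by their leading genes. None of the 6 had a microglia marker among its 10 leading genes. Cluster 1 was led by division genes, cluster 5 by Tnf and other inflammatory genes and cluster 7 by interferon-induced genes. These clusters are therefore compared by number and not as 1 class. The nuclear sum was 26652 CPM in cluster 1, 26720 in cluster 3, 25710 in cluster 5 and 22106 in cluster 7 of Repop D5, against 13906 in cluster 0 and 13504 in cluster 2 of CD. The mitochondrial sum was 48651, 50231, 53140 and 48364 CPM in those Repop D5 clusters, against 20846 and 20933 CPM in those of CD. Every one of these Repop D5 clusters thus stood above CD clusters 0 and 2. By the nuclear sum the 3 CD cells of cluster 1 were nearer to Repop D5, at 23375 CPM with an interval of 21192 to 25717 that holds the value of Repop D5 cluster 7. Their mitochondrial sum was 30598 CPM (28102 to 33251), below those of the Repop D5 clusters and nearer to those of CD clusters 0 and 2.

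Over the cells of these 6 clusters together, 497 of Repop D5 and 411 of CD, the nuclear ratio was 1.92 (1.90 to 1.94) with 52 of 74 higher, and the mitochondrial ratio 2.37 (2.35 to 2.39) with 12 of 13 higher. The background there was 17.6% higher and 40.1% lower. Neutrophil markers were at 849 CPM in Repop D5 and 2392 CPM in CD in these cells and red cell markers at 2.54 and 3344 CPM, and the part of that RNA in the ratios was not tested. Called higher in these cells were 20 of 36 nuclear members of complex I, 0 of 4 of complex II, 6 of 8 of complex III and every measured member of complexes IV and V.

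Clusters 6, 9 and 10 also held cells of both libraries. Neutrophil-like cells of cluster 9 had a nuclear sum of 17588 CPM in 7 Repop D5 cells and 11778 CPM in 23 CD cells, and a mitochondrial sum of 20815 and 7045 CPM. Monocyte-like cells of cluster 6 had nuclear sums of 25153 CPM in 47 Repop D5 cells and 20571 CPM in 5 CD cells, and mitochondrial sums of 45120 and 19938 CPM. In the 4 unnamed cells of cluster 10, 2 of each library, the nuclear sum was 27712 CPM in Repop D5 and 19470 CPM in CD, but the mitochondrial sum was lower in Repop D5, at 27068 and 32264 CPM. Border macrophage-like cells were seen in CD alone (118 cells), at 13843 CPM nuclear and 21812 CPM mitochondrial, close to CD clusters 0 and 2.

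Division RNA was 953 CPM in Repop D5 and 16.8 CPM in CD, and the levels were compared across it within Repop D5. At 3000 UMIs per cell, the 194 cells with 3 or more UMIs of 8 division genes had a nuclear sum of 26416 CPM and a mitochondrial sum of 49294 CPM. The 244 cells with 1 to 2 such UMIs had 25911 and 50350 CPM, and the 115 cells with none 24951 and 47786 CPM. The class with none is a range of a per-cell sum and not a type. Its nuclear interval of 24433 to 25477 CPM lay below the 26005 to 26831 CPM of the class with 3 or more. The CD sum, without thinning, was 13741 CPM. Median UMIs before thinning were 13726 in the class with none, 15520 in the next and 21604 in the class with 3 or more. The part of division or depth in these levels was not tested.

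The 10 assembly factors and related genes summed to 593 CPM in Repop D5 and 557 CPM in CD, a ratio of 1.07 (1.022 to 1.11). Among 8 measured, 2 were higher and 2 lower, beside 16.8% and 42.1% of all genes, and their median log2 ratio was -0.12. Trimmed-mean scaling gave 4 of 9 higher and 1 lower with a median of 0.57, beside 30.6% and 21.3% of all genes. Ndufaf2 had 42.9 CPM in Repop D5 and 24.6 CPM in CD, and Ndufaf6 13.5 and 7.27 CPM, both complex I assembly factors. Ndufaf1, which helps build the membrane arm of complex I, had 9.60 CPM in Repop D5 and 14.9 CPM in CD, a ratio of 0.646 (0.483 to 0.866), and was no longer called lower under, among others, trimmed-mean scaling, at 0.887, or in the cells of the 6 clusters, at 0.748 (0.512 to 1.11). Atp5sl had 10.6 CPM in Repop D5 and 24.4 CPM in CD, a ratio of 0.434 (0.337 to 0.557), and stayed called lower under that scaling at 0.595. Cox7a2l, a factor of respiratory supercomplexes, had 402.2 CPM in Repop D5 and 357.8 CPM in CD, a ratio of 1.12 (1.07 to 1.18). Just under the minimum lay Ndufaf5, with 8.88 CPM in Repop D5 and 4.29 CPM in CD.

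Other assembly lists were mixed, and are to be read against all measured genes, of which 16.8% were higher and 42.1% lower at a median of -0.38 (30.6%, 21.3% and 0.10 under trimmed-mean scaling). Complex IV assembly genes had 2 of 13 measured higher and 1 lower (median log2 ratio 0.21), and complex I assembly genes outside the symbol rule 0 of 7 higher and 3 lower (-0.45, or -0.03 with 1 lower under trimmed-mean scaling). Complex III assembly had 1 of 5 higher and 3 lower, and that 1 was Uqcc2, with 291.2 CPM in Repop D5 and 110.8 CPM in CD, a ratio of 2.63 (2.42 to 2.86). Complex II assembly had 0 of 4 called either way, and ATP synthase assembly 0 of 3 higher and 1 lower, Atpaf1. Of the mobile carriers, Cycs, the cytochrome c that links complexes III and IV, had 267 CPM in Repop D5 and 105.5 CPM in CD, a ratio of 2.53 (2.32 to 2.76). The cytochrome c and coenzyme Q list had 3 of 10 higher and 2 lower, with Coq7, an enzyme of coenzyme Q synthesis, at 2.85 (2.23 to 3.67) and Coq2, another, at 0.643 (0.541 to 0.764).

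Of 11 measured genes that copy and transcribe mitochondrial DNA, none was called higher and 6 were called lower, at a median log2 ratio of -0.58. Trimmed-mean scaling left 2 called lower at a median of -0.16, with 0 higher. Both counts of lower genes are near the shares over all genes, 42.1% and 21.3%. Called higher were 16.8% of all measured genes, and 30.6% under trimmed-mean scaling. Tfam, which packs and transcribes mitochondrial DNA, had 24.0 CPM in Repop D5 and 28.2 CPM in CD, a ratio of 0.850 (0.699 to 1.04). Polg2, the accessory subunit of the mitochondrial DNA polymerase, had 5.25 CPM in Repop D5 and 12.7 CPM in CD, a ratio of 0.413 (0.289 to 0.589). Of 10 genes for mitochondrial RNA binding and decay, 4 were higher and 2 lower, Slirp, which stabilises mitochondrial mRNA, at 195.9 CPM in Repop D5 and 105.5 CPM in CD, a ratio of 1.86 (1.70 to 2.03). The mitochondrial ribosome, which makes the 13 proteins, had 28 of 76 measured genes higher and 0 lower, with a median of 0.44, led by Mrpl54 at 2.72 (2.38 to 3.11).

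Over all measured genes, against which the following lists are set, 16.8% were higher and 42.1% lower. Protein import had 11 of 19 higher and 0 lower (median 0.59), led by the matrix chaperonins Hspe1, with 709.3 CPM in Repop D5 and 221.6 CPM in CD, a ratio of 3.20 (3.02 to 3.39), and Hspd1, at 3.01 (2.72 to 3.34). All 8 measured genes of adenine nucleotide and phosphate exchange were higher (median 0.92), Slc25a5, an ATP and ADP carrier, with 798.7 CPM in Repop D5 and 485.6 CPM in CD, a ratio of 1.64 (1.58 to 1.72). In the citrate cycle, which feeds complexes I and II, 5 of 17 were higher and 0 lower (median 0.37). Cs, citrate synthase, had 70.6 CPM in Repop D5 and 24.9 CPM in CD, a ratio of 2.83 (2.37 to 3.39), while Idh2 had 79.9 CPM in Repop D5 and 117.4 CPM in CD, a ratio of 0.681 (0.616 to 0.752).

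**Figure D5:**
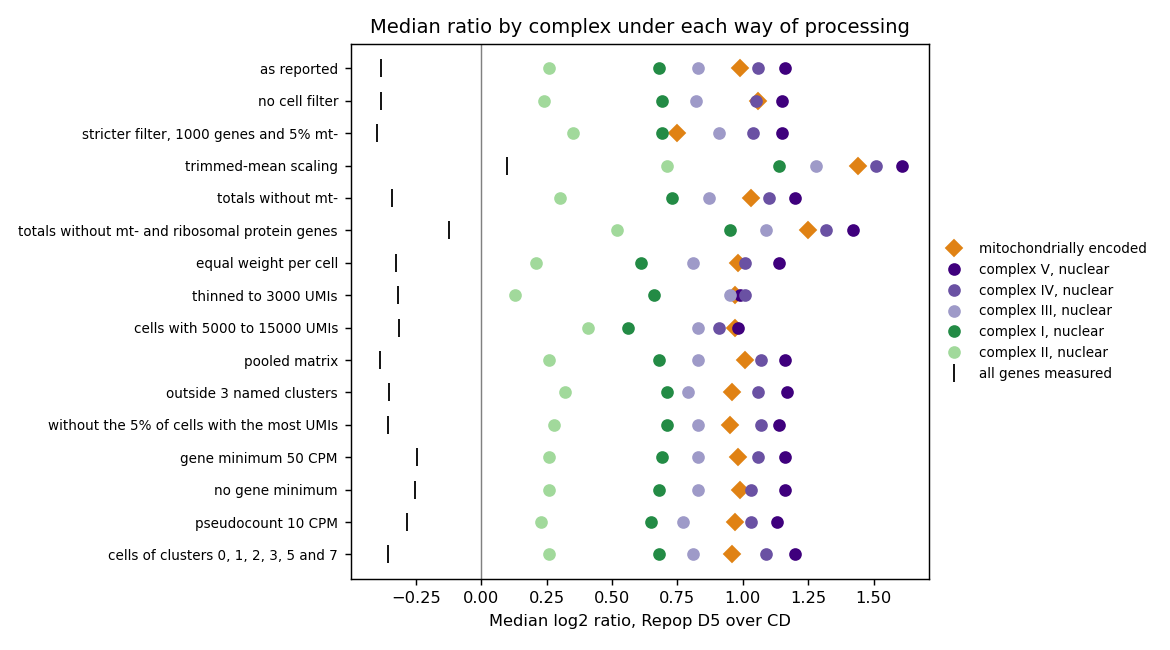
Median log2 ratio, Repop D5 over CD, of the nuclear members of each complex (circles), of the mitochondrially encoded genes (diamonds) and of all measured genes (bars) under each way of processing, 1 per line. Complexes I and II have the lowest nuclear medians in every line, and the mitochondrial median falls to 0.75 under the stricter cell filter.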

How the data were processed

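Sorted CD11b+/CD45+ brain cells were measured in 2 libraries, 1 per group. The deposited values are raw counts of UMIs, made by the authors with Cell Ranger 2.1.0 on mm10, per the submitters' processing notes. How reads shared with pseudogene copies were counted is not given in the sources used here.

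Counts were summed over retained cells (at least 500 genes, under 10% mt- UMIs; no doublets removed) and scaled to CPM. Ratios have exact conditional binomial 95% intervals of 2 Poisson counts. The step was tested on simulated data. Cells were clustered with scanpy 1.11.5 and leidenalg 0.10.2 (2000 variable genes, 30 components, 15 neighbours, resolution 1) in Python 3.11.15. Coordinates and lengths (median over a gene's annotated protein-coding transcripts) come from GENCODE M21. Named subunits are, per complex, the 2 highest and 2 lowest ratios and the 2 most abundant, with all mt- genes, isoform sets and members called lower. A few others are named as near a limit or for contrast. Of the related lists, only some of the genes picked by the same rule are named. The members and lists were chosen with earlier results of these data known. Alternatives changed the filter, scaling, weighting, depth, matrix, cells and minimum. The authors' pooled matrix holds 96.8% of the Repop D5 UMIs.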

Additional observations from a re-analysis of the deposited data

How the results depend on the processing

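No called result reversed in any alternative run, though the uncalled ratios of Ndufs7, Ndufs1 and Sdha turned above 1 under trimmed-mean scaling and under totals without mt- and ribosomal protein genes, Ndufs1 was no longer below 1 with thinning (interval of 0.677 to 1.54), and mt-Nd4l turned to 0.871 under the stricter filter and 0.947 in cells of 5000 to 15000 UMIs. Trimmed-mean scaling gave median log2 ratios of 1.34 for nuclear and 1.44 for mitochondrial subunits, summed ratios of 2.62 and 3.18, and medians of 1.14, 0.71, 1.28, 1.51 and 1.61 for nuclear complexes I to V. Totals without mt- and ribosomal protein genes gave 1.15 and 1.25, 2.29 and 2.79, and 0.95, 0.52, 1.09, 1.32 and 1.42 in the same order. Totals without mt- genes gave summed ratios of 1.96 and 2.39, equal weight per cell 1.86 and 2.37, and thinning 1.84 and 2.35 with complex V at 0.99. Cells of 5000 to 15000 UMIs gave a nuclear median of 0.78, summed ratios of 1.76 and 2.30, and 0.56, 0.91 and 0.98 for complexes I, IV and V. The stricter cell filter gave summed ratios of 1.93 and 1.89 and a mitochondrial median of 0.75. Cells outside the 3 named clusters gave 1.93 for the nuclear sum. The mitochondrial sum was 2.42 without a cell filter, 2.35 in the pooled matrix, 2.28 without the 5% of cells with the most UMIs and 2.37 in clusters 0, 1, 2, 3, 5 and 7, an alternative chosen after seeing the data. At a called ratio of 2, 25 nuclear and 6 mitochondrial subunits were higher (9.61% of all genes). Of 492 values of 41 named genes under 12 alternatives, 0 called values turned and 319 stayed within their counting interval. The causes were not tested. Depth limits genes near 10 CPM. No paired analysis was possible because each group is 1 library.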

Other observations

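Counts of lists outside oxidative phosphorylation stand beside 16.8% of all measured genes higher and 42.1% lower (30.6% and 21.3% under trimmed-mean scaling). Of 15 measured glycolysis genes, 9 were higher in Repop D5, and 4 were lower; their median log2 ratio was 1.37. Gapdh, the glycolytic dehydrogenase, had 2560 CPM in Repop D5 and 396 CPM in CD, a ratio of 6.47 (6.20 to 6.74), and Pkm, pyruvate kinase, 796 and 232 CPM, a ratio of 3.43 (3.24 to 3.63). Hk2, a hexokinase that starts the pathway, had 205 CPM in Repop D5 and 520 CPM in CD, a ratio of 0.394 (0.373 to 0.416). The cytoplasmic ribosome had 77 of 83 genes higher and 0 lower, with a median of 1.09.

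Regulators of mitochondrial biogenesis had 1 of 8 measured genes higher and 4 lower, shares near those of all genes, with a median of -0.59, and 0 lower with a median of -0.16 under trimmed-mean scaling. Esrra, a nuclear receptor that activates respiratory genes, had 12.6 CPM in Repop D5 and 24.8 CPM in CD, a ratio of 0.508 (0.401 to 0.645), and Myc 31.1 and 16.7 CPM, a ratio of 1.86 (1.49 to 2.35). Of 5 measured genes of the hypoxia and mitophagy response, 4 were lower, 2 of them still so under that scaling. The other, Higd1a, was higher, at 2.03 (1.83 to 2.26). Bnip3l, a receptor for the removal of mitochondria, had 70.8 CPM in Repop D5 and 181 CPM in CD, a ratio of 0.391 (0.356 to 0.429).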
